A study of Mus musculus with 38 samples.

Results

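Long base-unpairing regions (BURs) are described here, the stretches of mouse genomic DNA that recombinant SATB1 retained in vitro over at least 800 bp. They were chosen by length from the deposited BUR reference map, a single list of binding regions, as those on chromosomes 1 to 19 and X whose end lay 800 bp or more beyond the start. There were 9177 such BURs among 232068 on these chromosomes and 238380 in the whole map, so 3.95% of BURs on these chromosomes were long, and they held 8.25% of the bases in BURs. The remaining 222891 BURs are called shorter BURs. The map was made by letting his-tagged recombinant SATB1 bind purified, sonicated thymocyte DNA carrying no chromatin proteins. Length is the measure that chose the members, and the in vitro fold enrichment comes from the same list, so both are given as descriptions without a test.

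The map was compared with 10 lists of ChIP-seq peaks from Satb1+/+ wild-type mice on the C57BL/6 background. In urea ChIP-seq, crosslinked chromatin is spun through urea, so that only directly crosslinked proteins stay on the DNA before immunoprecipitation. Urea SATB1 ChIP-seq was done with the home-made antibody 1583D in thymocytes, in brain (cells of the cortex, where the submitters state that neurons express SATB1) and in skin (primary epidermal keratinocytes), with 2 libraries each. Standard SATB1 ChIP-seq, on chromatin not purified through urea, was done in thymocytes with 2 libraries, replicate 1 with the Abcam antibody ab109122 and replicate 2 with 1583D. Urea CTCF ChIP-seq gave 1 list in thymocytes and 1 in skin. The labels give postnatal day 13 for thymocytes, with 6 weeks in the titles of thymocyte CTCF and standard replicate 1. They give 5 weeks for brain replicate 1 and 6 weeks for brain replicate 2, but postnatal day 13 in the brain protocol, and they give both postnatal day 13 and day 5 for skin. The brain libraries also differ in cycles (10 and 12), the skin libraries in sonication (55 and 60 s), the standard libraries in sonication (15 and 150 s) and the thymocyte urea libraries in antibody (4 and 2 ul). The study describes its replicates as cells of different animals, while the labels do not tie a library to an animal. In the titles, the 2 urea SATB1 libraries of each cell type carry the same TKS number, and what a shared number stands for is not given. The lists held 10846 to 117963 peaks and no read counts or expression values. The depth of a library is thus not known from them, and the cells could not be checked against marker genes. For urea ChIP-seq, the paper states that the cell types were similar in their total of aligned reads.

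SATB1 is a nuclear protein, abundant in thymocytes, that folds chromatin by holding specialised DNA elements. BURs are such elements: clusters of short stretches in which a strand holds A, T and C but no G, so that the helix unwinds readily under torsional stress. SATB1 recognises this ATC context rather than a fixed motif. CTCF, by contrast, binds a defined motif and marks loop anchors and insulators.

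The sequences below show the ATC context in the long BURs that the results turn on. Each is the plus strand of NCBIM37/mm9, 300 bases within the BUR around its summit, 5′ to 3′, and capitals mark its longest stretch without C or without G.
the longest BUR, chr9:89854879-89855178: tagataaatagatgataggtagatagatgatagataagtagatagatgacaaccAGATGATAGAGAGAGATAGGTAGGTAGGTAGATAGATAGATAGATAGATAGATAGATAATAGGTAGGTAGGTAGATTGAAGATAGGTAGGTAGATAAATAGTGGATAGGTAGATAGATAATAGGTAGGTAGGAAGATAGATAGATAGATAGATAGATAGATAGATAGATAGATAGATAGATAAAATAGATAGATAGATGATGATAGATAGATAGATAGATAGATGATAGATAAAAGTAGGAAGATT
highest in vitro fold enrichment, chr13:47911426-47911725: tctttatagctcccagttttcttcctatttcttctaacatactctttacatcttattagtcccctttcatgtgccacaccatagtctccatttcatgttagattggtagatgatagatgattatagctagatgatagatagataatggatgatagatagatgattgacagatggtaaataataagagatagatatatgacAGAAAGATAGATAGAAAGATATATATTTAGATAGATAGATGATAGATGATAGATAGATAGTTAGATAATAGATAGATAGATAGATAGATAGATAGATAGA
highest in thymocytes, chr9:35112889-35113188: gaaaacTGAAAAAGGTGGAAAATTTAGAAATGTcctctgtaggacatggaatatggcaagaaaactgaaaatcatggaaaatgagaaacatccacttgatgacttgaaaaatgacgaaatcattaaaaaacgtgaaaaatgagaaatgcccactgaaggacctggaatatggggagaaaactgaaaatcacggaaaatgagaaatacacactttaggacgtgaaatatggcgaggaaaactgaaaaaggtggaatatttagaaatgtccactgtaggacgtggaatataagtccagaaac
highest in brain, chr8:36285053-36285352: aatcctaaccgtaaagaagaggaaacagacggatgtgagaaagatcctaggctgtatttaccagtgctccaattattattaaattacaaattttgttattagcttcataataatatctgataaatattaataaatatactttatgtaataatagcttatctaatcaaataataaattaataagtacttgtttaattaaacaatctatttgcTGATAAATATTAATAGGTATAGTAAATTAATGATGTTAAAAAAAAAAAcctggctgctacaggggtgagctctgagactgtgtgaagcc
highest in skin, chr4:67831655-67831954: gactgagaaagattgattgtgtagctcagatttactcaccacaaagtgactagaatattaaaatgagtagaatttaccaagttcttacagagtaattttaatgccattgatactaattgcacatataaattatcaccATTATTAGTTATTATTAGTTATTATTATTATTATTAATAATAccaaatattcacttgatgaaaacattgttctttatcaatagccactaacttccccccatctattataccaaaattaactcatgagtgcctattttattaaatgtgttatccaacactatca
the longest with no urea SATB1 peak, chr1:181833148-181833447: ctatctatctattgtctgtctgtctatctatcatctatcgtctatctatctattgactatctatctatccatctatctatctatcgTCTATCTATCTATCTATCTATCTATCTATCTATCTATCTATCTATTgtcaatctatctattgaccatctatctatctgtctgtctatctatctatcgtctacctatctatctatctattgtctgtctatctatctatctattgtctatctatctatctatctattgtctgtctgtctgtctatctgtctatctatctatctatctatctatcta
In the longest BUR the capitals ran over 246 of the 300 bases, and in the BUR of highest in vitro fold enrichment they ran over 100. The windows of the longest BUR and of the longest BUR with no urea SATB1 peak consisted largely of GATA repeats or their complement TATC, and that of highest in vitro fold enrichment turned into GATA repeats in its 3′ part. The windows highest in thymocytes, brain and skin had stretches of 27, 48 and 42 bases and no such array.

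Long BURs were slightly richer in A and T than shorter BURs. Their AT content had a median of 72.0% (quartiles 69.8 and 73.9%), against 70.6% (quartiles 67.0 and 73.1%) in shorter BURs. The median was higher in long BURs on 20 of 20 chromosomes, with a difference of 1.39 percentage points over all and an SD of 0.25 across chromosomes. The lower quartiles thus differed more than the upper ones. At the 300 bp around the summit the medians were 73.7 and 71.7%. The higher AT content was not particular to BURs of 800 bp or more. Over the whole BUR the median was 71.3% under 300 bp, 69.6% from 400 to under 500 bp and 69.7% from 500 to under 600 bp. It was 71.7% from 600 to under 700 bp, 71.9% from 700 to under 800 bp and 71.9% from 800 to under 900 bp. The longest stretch without C or without G had a median of 51 bp in long and 42 bp in shorter BURs, and 53.2% of long against 33.9% of shorter BURs had a stretch of 50 bp or more. A longer region has more places for such a stretch, so the share of bases in stretches of at least 25 bp is the fairer comparison, with medians of 27.7% in long and 25.1% in shorter BURs. TA steps, the most easily melted of dinucleotides, took a median of 11.7% of positions in long and 10.9% in shorter BURs. No test was made, as regions of 1 list are not replicates.

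**Figure D1:**
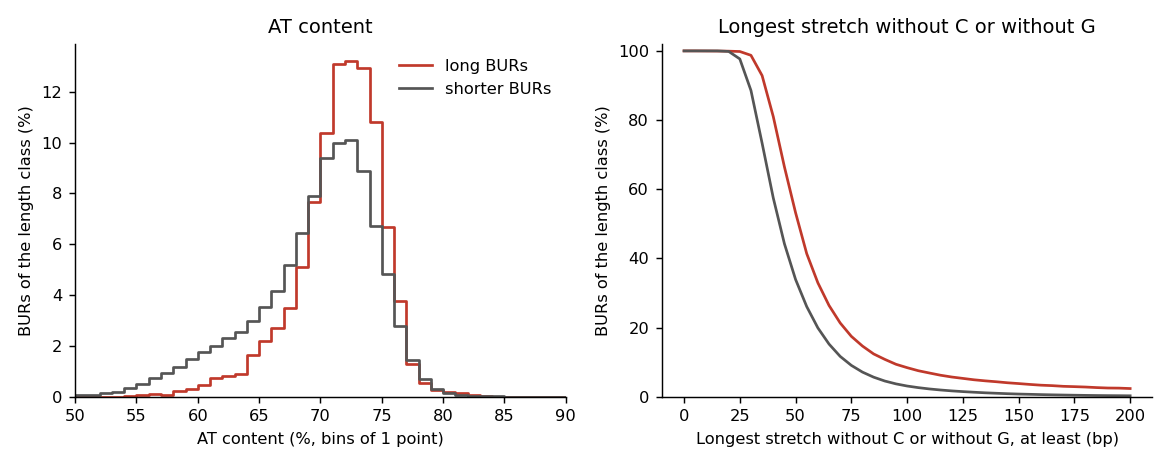
Left, share of long (red) and shorter (grey) BURs in each 1-point bin of AT content in percent; right, share of each class whose longest stretch without C or without G reaches the length in bp on the axis. Long BURs peak near a median of 72.0% AT with a thinner low tail than shorter BURs, and their curve of stretches lies to the right, with 53.2 against 33.9% at 50 bp.

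The lengths of long BURs ran from 800 to 3976 bp, with a median of 912 bp, and 131 of them reached 1500 bp. The in vitro fold enrichment had a median of 8.12 in long and 5.80 in shorter BURs, but the highest value was in a shorter BUR (35.3 against 26.6). By length it was not highest in the longest BURs: the median was 9.95 in BURs of 500 bp to under 600 bp, 8.18 in those of 800 bp to under 900 bp and 6.47 in those of 1500 bp or more. Just inside the limit, the 43 BURs of exactly 800 bp had a median fold enrichment of 7.23 and a median AT content of 72.3%, with 58.1% and 55.8% of their summits in a peak of brain replicates 1 and 2. Just outside it, the 60 BURs that were 1 bp shorter had values of 8.05, 72.2%, 63.3% and 56.7%.

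Most long BURs held few or no tandem repeats, which were commoner in the longest ones. A BUR was called repeat-rich where at least 20% of its bases lay in perfect tandem runs of at least 24 bp, a measure added after the data had been seen. It was called GATA-rich where runs of units of up to 6 bp reached that share and GATA was the commonest unit among them. Such runs can hold other units too, so the limit is not a share of GATA bases. Of the long BURs, 335 (3.65%) were GATA-rich, against 1.03% of shorter BURs, 74 (0.81%) were otherwise repeat-rich and 8768 (95.5%) were neither. GATA-rich BURs made up 0.23% of BURs of 300 bp to under 400 bp, 4.17% of those of 600 bp to under 700 bp, 3.08% of those of 800 bp to under 900 bp and 19.8% of the 131 BURs of 1500 bp or more. Their in vitro fold enrichment was alike in both length classes, with medians of 11.5 in long and 11.5 in shorter BURs. Of the long BURs, 60.97% held no 31-base word found in 10 or more BURs (the BUR itself counted), against 71.3% of shorter BURs. A longer region has more words that can be shared, so the share of its words is the fairer comparison. That share had a median of 0% in both classes and upper quartiles of 2.27% in long and 1.69% in shorter BURs.

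The 10 longest BURs show how varied these sequences were. The longest, chr9:89854138-89858113, spanned 3976 bp with an in vitro fold enrichment of 4.30 and lay in an intron of Rasgrf1, which encodes a guanine nucleotide exchange factor for Ras. It carried GATA repeats and peaks in both thymocyte urea (fold enrichment 7.37 and 5.20), both brain (12.9 and 12.5) and both standard SATB1 lists (2.67 and 4.06), and none in skin. The next, chr2:3881800-3885658, was a 3859-bp minisatellite with a run of 335 bp in a unit of 42 bp and a longest stretch without C or without G of only 19 bp, and 9 of 10 lists had a peak there. The third, chr1:181832507-181836086, was a 3580-bp GATA array with peaks in both standard lists (4.48 and 3.89) and in no urea SATB1 list. On chromosome X, chrX:150955045-150958214 and chrX:151188968-151191752 held no tandem run and were 83.1% and 83.1% AT. Both had peaks in the 4 thymocyte and brain urea lists, with fold enrichments between 4.99 and 8.61. The first also had a peak in skin replicate 1 (5.73). The second also had peaks in both skin lists (3.20 and 4.41) and in standard replicate 1 (5.53). In contrast, chr17:13743454-13746131, in an intron of Tcte2, was only 44.0% AT, held repeats of the unit ACAGC and had a peak in all 10 lists. A BUR of similar make, chr13:74665926-74668252 (42.6% AT), had peaks in 8 lists, both CTCF lists included, but in neither brain list. The AT-rich repeat at chr5:61911278-61913607 (80.5% AT), with a stretch of 616 bp without C or without G, had no peak in any of the 10 lists. The third longest BUR with no urea SATB1 peak, chr10:86930332-86932533 (2202 bp), was likewise a minisatellite without a peak in any list. The remaining 2 of the 10 longest were GATA arrays, chrX:153695732-153698189 in an intron of Phex, with peaks in both standard lists and in skin replicate 2, and chr14:111708066-111710275, with peaks in both brain lists (7.76 and 5.04).

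The first question was whether SATB1 in cells occupied long BURs more often than shorter BURs, with a BUR called occupied where its summit lay inside a peak. In thymocytes, replicate 1 covered 2120 long BURs (23.1%) against 13.5% of shorter and 13.8% of all BURs, and replicate 2 covered 20.7% against 12.0% of shorter and 12.3% of all. In brain, replicate 1 covered 5139 long BURs (56.0%) against 34.7% of shorter and 35.5% of all, and replicate 2 covered 51.0% against 31.9% of shorter and 32.6% of all. In skin, replicate 1 covered 582 long BURs (6.34%) against 3.43% of shorter and 3.55% of all, and replicate 2 covered 6.22% against 3.36% of shorter and 3.48% of all. Long BURs were thus covered more often in 6 of 6 libraries. The means over 2 libraries were 21.9% ± 1.68 (SD) of long and 12.7% ± 1.06 of shorter BURs in thymocytes, 53.5% ± 3.53 and 33.3% ± 1.98 in brain, and 6.28% ± 0.085 and 3.40% ± 0.0495 in skin.

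As an odds ratio of long against shorter BURs, the excess was 1.03 ± 0.14 on the log2 scale (SD over 6 libraries). An exact two-sided permutation test that flips the sign of each library gave p = 0.031, the smallest p that 6 libraries allow, and 0.042 after Benjamini-Hochberg adjustment over the 4 tests made. The test counts the 6 libraries as independent units, although those of a cell type share a number in their titles. The excess shrank by over 1.5 times in 2 settings. When shorter BURs were weighted to the in vitro fold enrichment of long BURs, their shares rose to 17.9 and 16.2% in thymocytes, 41.1 and 38.0% in brain and 4.85 and 4.76% in skin, and the mean log2 odds ratio was 0.56. Against BURs of 400 to 600 bp alone it was 0.66. Long BURs were covered more often in 6 of 6 libraries in both settings.

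**Figure D2:**
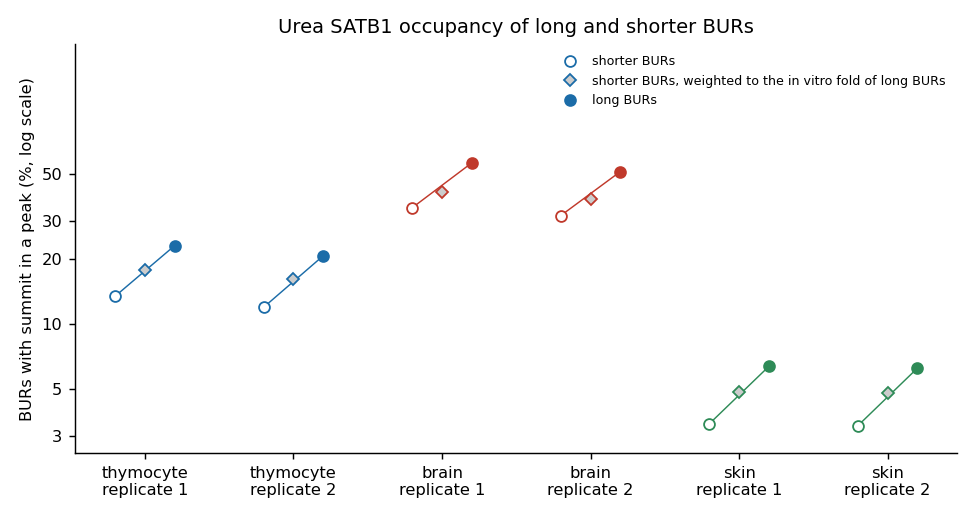
Share of BURs, in percent on a log axis, whose summit lay in a urea SATB1 peak, in each of the 6 libraries (open circle, shorter BURs; diamond, shorter BURs weighted to the in vitro fold enrichment of long BURs; filled circle, long BURs). In each library the long BURs lie above both, for example at 56.0% against 41.1 and 34.7% in brain replicate 1.

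The share occupied rose with length over the shorter BURs and changed little beyond 600 bp in thymocytes and brain. In brain replicate 1 it was 18.1% under 300 bp, 37.1% from 400 bp, 52.2% from 600 bp, 55.5% from 800 bp (each to under 100 bp more) and 59.5% from 1200 to under 1500 bp. In thymocyte replicate 1 the values at the same lengths were 5.12, 15.1, 21.2, 22.1 and 25.0%. At 1500 bp or more, with 131 BURs, they were 48.9% in brain and 22.1% in thymocytes. Skin had a different course. In skin replicate 1 the share was 0.82% under 300 bp, 6.34% from 500 to under 600 bp, 5.15% from 700 to under 800 bp, 8.67% from 1200 to under 1500 bp and 11.5% at 1500 bp or more.

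**Figure D3:**
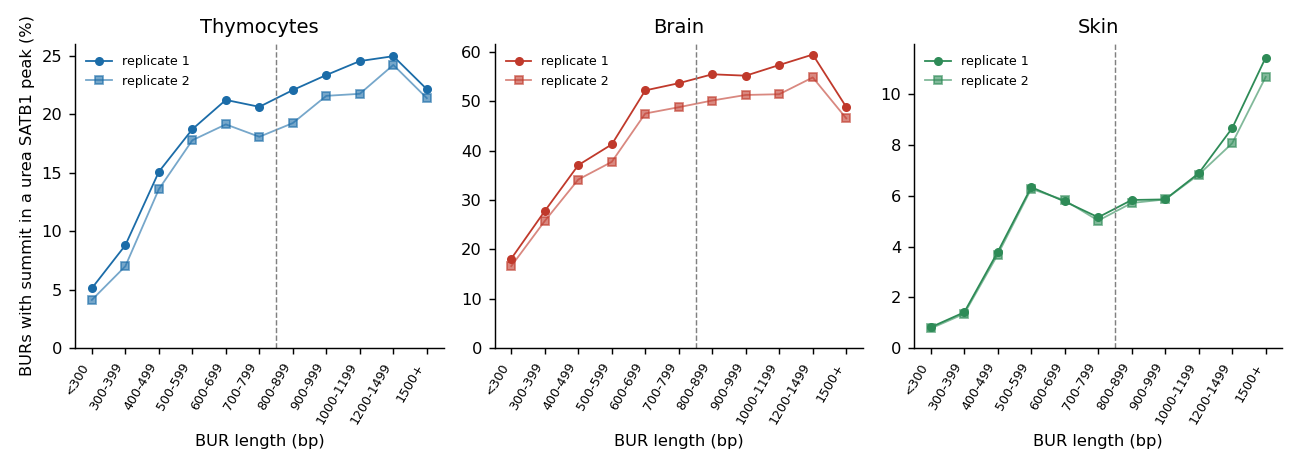
Share of BURs, in percent, whose summit lay in a urea SATB1 peak, by BUR length in bp, for thymocytes, brain and skin (circles, replicate 1; squares, replicate 2; dashed line, the 800 bp limit; each panel has its own scale). Brain and thymocytes level off from 600 bp and drop in the class of 1500 bp or more, to 48.9% and 22.1% in replicate 1, while skin reaches 11.5% there.

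The peaks that covered long BURs were longer than those at shorter BURs. In thymocytes the median peak length was 407 and 408 bp at long BURs against 372 and 374 bp at shorter BURs. In brain it was 659 and 595 bp against 486 and 463 bp, and in skin 419 and 409 bp against 384 and 383 bp. The difference of medians was 72.5 ± 63.4 bp (SD over 6 libraries) and positive in 6 of 6 (exact two-sided sign-flip permutation test, p = 0.031, adjusted 0.042). It was largest in brain, at 173 and 132 bp, with 26 to 35 bp in the other 4 libraries. Even so, a peak covered less of a long BUR. Among BURs that shared at least 1 base with a peak, the median share of a long BUR inside peaks was 41.2 and 40.8% in thymocytes, 63.6 and 58.1% in brain and 40.5 and 39.7% in skin, against 75.6 to 93.8% of a shorter BUR. Of the long BURs overlapped in this way, 1.73% (skin replicate 2) to 6.32% (brain replicate 2) carried at least 2 separate peaks, and in shorter BURs 0.072 to 0.13% did. The summit of the strongest such peak lay a median of 58 and 52 bp from the in vitro summit of a long BUR in thymocytes, 76 and 77 bp in brain and 44.5 and 44 bp in skin. At shorter BURs these distances were smaller, at 33 and 31 bp in thymocytes, 40 and 39 bp in brain and 27 and 28 bp in skin. The peak summit fell inside the long BUR in 99.0 to 99.5% of cases over the 6 libraries, which a longer region makes easier.

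The fold enrichment of these peaks differed most in brain, and over all libraries the difference did not pass the test. In brain the median was 10.5 and 10.4 at long BURs against 8.27 and 8.43 at shorter BURs, in thymocytes 9.01 and 9.07 against 8.59 and 8.67, and in skin 9.01 and 8.39 against 8.80 and 8.60. Skin replicate 2 thus ran the other way. The mean difference was 0.13 ± 0.15 on the log2 scale and positive in 5 of 6 libraries (exact sign-flip permutation test, p = 0.094, adjusted 0.094). In the same exact permutation test it passed the threshold, with p = 0.031, at a limit of 700 bp (0.15) and when shorter BURs were weighted to the in vitro fold enrichment of long BURs (0.075). Over the 5 settings tried p ran from 0.031 to 0.47 in this permutation test.

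**Figure D4:**
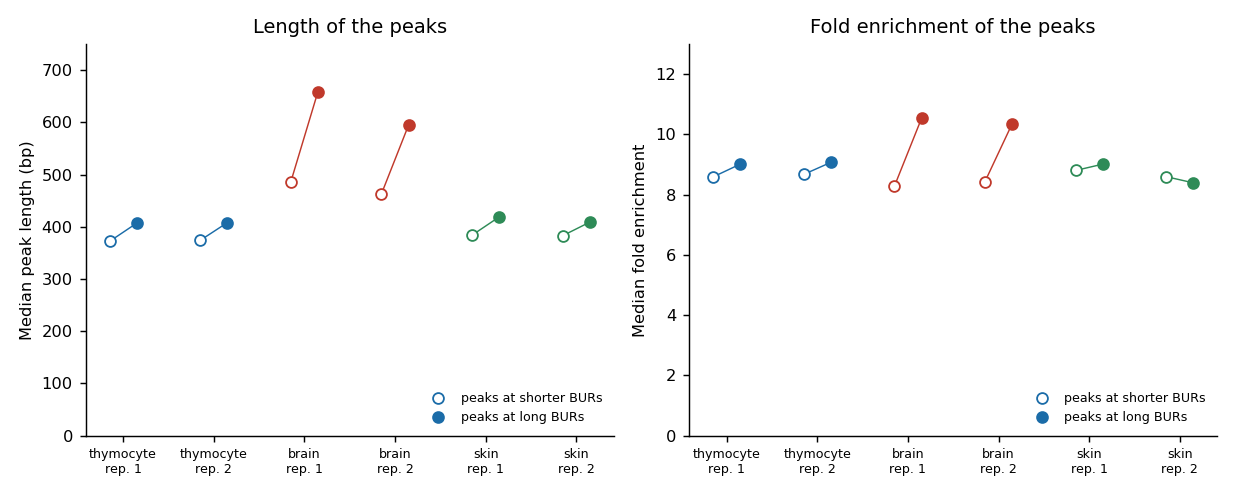
Median length in bp (left) and median fold enrichment (right) of the urea SATB1 peaks that covered the summit of shorter (open circles) and long BURs (filled circles) in each library. Peaks at long BURs are longer in every library, most in brain (659 against 486 bp in replicate 1), and of higher fold enrichment in all but skin replicate 2 (8.39 against 8.60).

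The second question was whether the excess at long BURs increased from skin over thymocytes to brain, the order of these cell types by number of peaks. The log2 odds ratio was 0.93 and 0.93 in skin, 0.95 and 0.95 in thymocytes and 1.26 and 1.15 in brain. In each of the 12 pairs of libraries from different cell types, the cell type later in the order had the larger value (Jonckheere-Terpstra count, two-sided, with all 90 arrangements of the libraries as an exact permutation test, p = 0.022, adjusted 0.042, the smallest p possible). Thymocytes and skin lay close together, with means of 0.95 and 0.93. The order turned on the scale: as a ratio of shares the excess was 1.85 and 1.85 in skin, 1.72 and 1.73 in thymocytes and 1.61 and 1.60 in brain, so that 0 of 12 pairs followed the order and all ran opposite (exact permutation test, p = 0.022). With exact permutation within replicate numbers as a block, p was 0.056, the smallest that design allows, and at a limit of 1000 bp 8 of 12 pairs followed the order (exact permutation test, p = 0.58). In these bulk samples, fewer cells with SATB1 and less SATB1 per cell cannot be told apart. The paper states that SATB1 protein is most abundant in the thymus, not in the brain. The part of SATB1 level in these shares was not tested.

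Occupancy was nested, in long BURs as in all BURs. In both libraries of a cell type, 4499 long BURs (49.0%) were covered in brain, against 29.9% of all BURs, 1690 (18.4%) in thymocytes, against 10.7% of all, and 501 (5.46%) in skin, against 2.99% of all. Of the thymocyte set 99.3% was also in the brain set, and this was 37.3% of the brain set; over all BURs these shares were 97.8% and 35.1%. Of the skin set 95.6% was in the brain set and 95.01% in the thymocyte set, close to 93.2% and 93.7% over all BURs. The thymocyte set held 2 long BURs (0.022%) with no peak in brain or skin, against 0.036% of all BURs, and the skin set held 9 (0.098%) with no peak in brain or thymocytes, against 0.11% of all. In the brain set, 1939 (21.1%) had no peak in the other lists, against 15.0% of all BURs. All 6 urea SATB1 lists covered 472 long BURs (5.14%), against 2.75% of all BURs. No urea SATB1 peak touched 2661 long BURs (29.0%), against 59.4% of all BURs, and a longer region has more bases that can meet a peak under this rule. Their median AT content was 71.1%, against 72.5% in the brain set, 72.3% in the thymocyte set and 71.4% in the skin set.

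Within the long BURs, brain and skin differed in the composition of what was covered. By quartile of AT content from lowest to highest, brain replicate 1 covered 38.7, 56.3, 63.0 and 66.0%, and thymocyte replicate 1 covered 19.8, 22.5, 23.5 and 26.6%. Skin replicate 1 covered 8.81, 5.27, 5.45 and 5.84%, highest where AT content was lowest, and replicate 2 had the same shape (8.59, 5.32, 5.41 and 5.57%). By in vitro fold enrichment, skin replicate 1 rose from 3.27% in the lowest to 10.3% in the highest quartile and thymocyte replicate 1 from 14.1 to 28.3%. Brain replicate 1 was at 47.8, 59.6, 60.9 and 55.7%, a smaller and uneven rise, and replicate 2 was at 42.8, 53.4, 55.9 and 51.9%. By the number of BURs within 100 kb, brain replicate 1 rose from 42.4% in the sparsest to 66.1% in the densest quartile, and skin replicate 1 was at 7.35 and 5.90%. These are shares of regions in each library, and the differences between the courses were not tested.

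The long BURs with the strongest peaks had strong peaks in all cell types. The highest mean fold enrichment in thymocytes was at chr9:35112592-35113406 (34.2 and 33.9), which also had 26.8 and 27.7 in brain and 26.5 and 26.2 in skin. This BUR had peaks in the standard SATB1 lists (30.75 and 30.95) and in the CTCF lists of thymocytes (45.3) and skin (28.3) too. The next in thymocytes, chr19:38305595-38306583 (33.2 and 33.4) and chr3:49774322-49775507 (33.2 and 32.8), had peaks in the 6 urea SATB1 lists and in no standard or CTCF list. The latter lay 214 kb from the start of Pcdh18, a protocadherin, and was second in skin (30.62 and 30.98). The strongest in brain was chr8:36284335-36285481 (27.2 and 27.8), 154 kb from the start of Ppp1r3b, which encodes a glycogen-targeting subunit of protein phosphatase 1. The strongest in skin was chr4:67831289-67832169 (31.8 and 31.5), 784 kb from the nearest gene start, that of Dbc1. Introns of Prr16 and Nol4 held the fourth in thymocytes, chr18:51429351-51430538 (31.3 and 30.7), and the third in brain, chr18:23012419-23013394 (25.8 and 26.9). The last of the 5 in brain were chr10:27684748-27685582 (26.4 and 26.2) and chr1:146515170-146516430 (25.6 and 26.9), and those in skin chr6:49506009-49507054 (29.0 and 29.6) and chr5:138993412-138994237 (28.3 and 27.9). Of the 5 named in each cell type, 2 were in the lists of both brain and thymocytes, and 2 of the skin list were in the thymocyte list. The in vitro ranking was another: of the 5 long BURs of highest in vitro fold enrichment (22.0 to 26.6), chr9:35112592-35113406 was in the list of a cell type and the other 4 were not. The highest of all, the GATA-bearing chr13:47911307-47912111 (26.6), had peaks in both brain lists (4.79 and 6.19), in standard replicate 2 (6.10) and in no other. The second, the GATA-bearing chr18:77712036-77712947 in an intron of Rnf165 (25.4), had peaks in the same 3 lists (20.0, 11.9 and 12.1), and the fourth, chr10:27759610-27760437 (24.7), had 1 peak, in brain replicate 1 (4.79).

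Standard SATB1 ChIP-seq rarely covered BURs of any length. The summits of 43 long BURs (0.47%) lay in a peak of replicate 1, against 0.10% of shorter and 0.118% of all BURs, and 109 (1.19%) in replicate 2, against 0.28% of shorter and 0.312% of all. The excess at long BURs was 2.18 and 2.12 as a log2 odds ratio, with a mean of 2.15 ± 0.044. With 2 libraries the smallest exact p of a sign-flip test is 0.5, so none was run. With any base in a peak, 170 and 179 long BURs (1.85 and 1.95%) were touched, against 0.649 and 0.521% of all BURs. Urea CTCF peaks covered the summits of 20 long BURs in thymocytes (0.22%, against 0.0483% of all BURs) and of 38 in skin (0.41%, against 0.2% of all).

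The GATA-rich BURs, long and shorter, went opposite ways in the urea and standard lists. Counting any base in a peak, the 335 GATA-rich long BURs were touched in 3.88 and 3.58% of cases in thymocyte urea SATB1, against 30.5 and 27.0% of the other 8842 long BURs. In brain the shares were 13.7 and 11.0% against 70.3 and 65.6%, and in skin 0.90 and 0.90% against 8.00 and 7.81%. In standard SATB1 the order was the reverse, with 22.7 and 28.4% of GATA-rich against 1.06 and 0.95% of the other long BURs. The share in all BURs was 14.6 and 12.9% for thymocyte urea, 37.2 and 34.2% for brain, 3.71 and 3.64% for skin and, as above, 0.649 and 0.521% for standard SATB1. GATA-rich BURs were lower in 6 of 6 urea lists and higher in 2 of 2 standard lists, and they made up 44.7 and 53.1% of all long BURs that a standard peak touched. The size in standard replicate 1 rested on this rule. By the summit, 7 GATA-rich long BURs (2.09%) against 0.41% of the others lay in a peak of replicate 1, and 58 (17.3%) against 0.58% in replicate 2, so that they were 16.3 and 53.2% of the long BURs covered. The direction was the same in the 2300 GATA-rich shorter BURs. Thymocyte urea peaks touched 0.39 and 0.22% of them, against 14.1 and 12.5% of other shorter BURs, and standard peaks touched 2.04 and 5.17%, against 0.58 and 0.41%. CTCF peaks touched 0 of 335 in thymocytes and 3 (0.90%) in skin, against 0.221 and 0.522% of all BURs. A limit of 40% of bases in runs of such short units, with GATA the commonest, left 70 long BURs. Their standard shares were 38.6 and 47.1% and those of thymocyte urea 1.43 and 1.43%. In the standard lists the excess of long over shorter BURs fell to a mean of 1.67 on the log2 scale when GATA-rich BURs were left out, from 2.18 to 2.03 in replicate 1 and from 2.12 to 1.31 in replicate 2, and in the urea lists it rose to 1.08. The standard and urea thymocyte libraries differ in chromatin preparation and in part in antibody and labelled age. Replicate 2 of the standard set shares its antibody with the urea lists and had the higher share of GATA-rich BURs. The part of antibody and preparation in the difference was not tested, nor was the part of read mapping, in which only unique matches were kept.

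**Figure D5:**
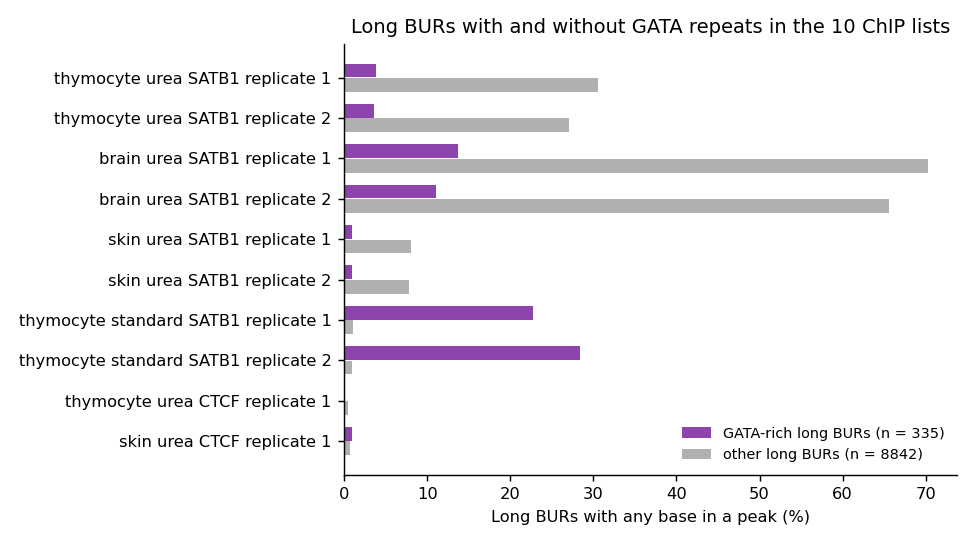
Share of GATA-rich (purple) and other long BURs (grey), in percent, with any base in a peak of each of the 10 lists. The purple bars are the shorter ones in the 6 urea SATB1 lists and the longer ones in both standard SATB1 lists, at 22.7 and 28.4% against 1.06 and 0.95%.

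A few long BURs had a peak in every list. Counting any base in a peak, there were 19 among the 9177 long BURs and 38 among the 222891 shorter BURs. A longer region has more bases that can meet a peak under this rule. The 19 long BURs had a median AT content of 64.6% and in vitro fold enrichments from 1.93 to 22.0. Of these 8 lay on chromosome 9, and 6 matched themselves best at a shift within 2 bp of 234 bp (44.2 to 86.5% identity). That is the unit length of mouse major satellite, the repeat of pericentromeric heterochromatin. Among them were chr9:2999945-3001748 and chr9:3023406-3025109, which overlap exons of the gene models Gm10722 and Gm10718, and chr9:35112592-35113406 above. On the same chromosome, chr9:3017803-3018788 and chr9:3037120-3038302 matched themselves best at longer shifts, of 467 and 468 bp (86.5 and 92.6% identity). Without BURs in all 10 lists the urea excess was 1.01 on the log2 scale. Long BURs of low AT content took a large part in the lists that seldom touched BURs: in the lowest AT quartile CTCF covered 0.78% in thymocytes and 1.48% in skin, and at most 0.087% in the other 3 quartiles. The 3 long BURs of highest in vitro fold enrichment with CTCF peaks in both cell types were chr3:8244690-8245525 (25.2), chr9:35112592-35113406 (22.0) and chr5:138993412-138994237 (16.3). Standard SATB1 peaks lay at all 3 in both replicates. The 3 highest with standard peaks in both replicates were the first and second of these and chr4:129604799-129605667 (18.3), 19.4 kb from the start of Spocd1.

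Long BURs lay further from genes than shorter BURs. Of the long BURs, 2275 (24.8%) shared a base with a protein-coding gene, against 32.4% of shorter BURs and 37.7% of the genome covered by such genes. The share was lower in long BURs on 19 of 20 chromosomes, chromosome 7 being the exception (32.8 against 31.4%). Introns alone held 21.5% of long and 29.4% of shorter BURs. Exons were touched by 306 long BURs (3.33%) against 3.01% of shorter, but by the summit 0.68% of long and 1.10% of shorter BURs lay in an exon. The window of 1 kb on either side of a gene start was touched by 100 long BURs (1.09%) and 0.91% of shorter BURs. The median distance from the summit to the nearest start of a protein-coding gene was 217 kb for long and 132 kb for shorter BURs. Starts were over 500 kb away for 2565 long BURs (28.0%), against 19.6% of shorter. Long BURs also lay among more BURs, with a median of 32 others within 100 kb against 25, and 69.2% had another long BUR within that distance, against 56.2% of shorter BURs. They were spread over the genome, with 76.7% of 2649 windows of 1 Mb holding at least 1. The densest window, on chromosome 2 from 86000001 to 87000000, held 30 and lay in an array of 50 olfactory receptor genes. The next, on chromosome 15 from 17000001 to 18000000, held 29 and no protein-coding gene, and both brain libraries covered 75.9% of them, against 43.3% in the densest window and 49.0% of all long BURs. Per chromosome the density ran from 1.95 per Mb on chromosome 11 to 4.76 per Mb on chromosome 15, and the share of BURs that were long from 2.95 to 4.96% on the same chromosomes.

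The place of a long BUR went with its occupancy in a way that differed by cell type. In brain, 63.8 and 58.6% of the 2565 long BURs over 500 kb from a gene start were covered, against 54.3 and 49.8% of the 1969 in introns. In thymocytes the shares were 26.2 and 23.9% against 24.1 and 20.8%. In skin they were 4.95 and 4.95% against 7.62 and 7.26%. Near gene starts, 15.0% of the 100 long BURs were covered in each skin library, 50.0 and 48.0% in brain and 20.0 and 18.0% in thymocytes, with standard SATB1 at 12.0 and 14.0% and CTCF at 6.00% in thymocytes and 11.0% in skin. The median AT content of those far from genes was 72.9%, of those in introns 71.5% and of those near starts 72.4%. These differences were not tested. Over all long BURs, 56.0 and 51.0% were covered in brain, 23.1 and 20.7% in thymocytes and 6.34 and 6.22% in skin. Standard SATB1 covered 0.47 and 1.19%, and CTCF 0.22% in thymocytes and 0.41% in skin. Shorter BURs were not counted by place, so these courses are not shown to be particular to long BURs. The 5 longest near a gene start lay by Olfr769 (chr10:128550332-128552419), Gm10722 and Gm10718 on chromosome 9, Olfr121 (chr17:37884092-37885691) and Olfr1381 (chr11:49363589-49365119). Those by Olfr769 and Olfr1381 were GATA arrays with peaks in both standard SATB1 lists, with fold enrichments from 4.21 to 6.12. The one by Olfr769 also had peaks in both brain urea SATB1 lists (6.17 and 5.08), and the one by Olfr1381 had no urea SATB1 peak.

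Genes with many long BURs were large, and several of them encode proteins of synapses. Of 22350 protein-coding genes, 1292 (5.78%) held at least 1 long BUR and 22 held 10 or more. Of all long BURs, 49.0% were covered in both brain libraries, 18.4% in both thymocyte libraries and 5.46% in both skin libraries. Csmd3, encoding a large transmembrane protein with CUB and sushi domains, held most long BURs, with 26 over 1211 kb. Of these, 15 were covered in both brain libraries, 9 in both thymocyte libraries and 4 in both skin libraries. Cadm2, a synaptic cell adhesion molecule, held 20, with 12 covered in brain, 2 in thymocytes and 0 in skin. Lrp1b, a receptor of the LDL receptor family, held 18 and Sgcz, a sarcoglycan, held 17. Erbb4, a receptor tyrosine kinase for neuregulins, held 16, with 10 covered in brain. They were followed by Dlg2, a scaffold of the postsynaptic density (15), Galntl6 of the GalNAc transferase family (15), Cdh18, a cadherin (14), and Cntnap2, a neurexin-related adhesion molecule (14). The genes named here span 925 to 2241 kb and were chosen by their number of long BURs, so that number is a description. Long BURs made up 8.61% of the BURs in Csmd3 and 8.55% of those in Cadm2, but 4.03% in Lrp1b and 3.70% in Cntnap2, beside 3.95% of all BURs. The average density was 2.29 long BURs per Mb of protein-coding genes and 4.196 per Mb outside them.

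By gene family, the densities of long BURs went with differing densities of shorter BURs. Shorter BURs numbered 84.5 per Mb of the genome, 141 and 163 per Mb of olfactory and vomeronasal receptor genes, 165 of protocadherins, 122 of synaptic adhesion molecules and 66.8 of T-cell genes. The share of BURs that were long, 3.95% over all, was 7.04% in olfactory and 6.06% in vomeronasal receptor genes, 5.27% in classical cadherins and 5.09% in protocadherins. It was 3.06% in synaptic adhesion molecules and 1.56% in T-cell genes. A long BUR touched 19 of 1087 olfactory and 35 of 320 vomeronasal receptor genes, beside 5.78% of all protein-coding genes. Of these genes, Olfr301, Vmn2r103 and Vmn2r66 held 2 each and Olfr1033 held 1. Olfactory receptor genes held 20 long BURs over 1.88 Mb (10.7 per Mb) and vomeronasal receptor genes 38 over 3.62 Mb (10.5 per Mb). Both libraries of brain covered 45.0% and 28.9% of them, against 49.0% of all long BURs. In vomeronasal receptor genes 55.3% had no urea SATB1 peak, against 29.0% of all long BURs. Taste receptors had 1, in Tas2r117. Protocadherins held 38 (8.88 per Mb; Pcdh9 with 14 and Pcdh15 with 9), classical cadherins 35 (6.49 per Mb; Cdh18 with 14 and Cdh12 with 4) and GABA and glutamate receptors 71 (6.01 per Mb; Grik2 with 13). Brain covered 63.2, 68.6 and 52.1% of those of these families. Axon guidance genes held 43 (4.97 per Mb, 62.8% covered in brain; Epha6 with 11 and Epha5 with 10), synaptic adhesion molecules 118 (3.86 per Mb, 54.2%; Cntnap2 with 14 and Cntn5 with 11) and voltage-gated ion channels 35 (2.93 per Mb, 48.6%; Kcnt2 with 6 and Cacna2d1 with 4). Cytochrome P450 genes held 12 (5.04 per Mb; Cyp2c40 and Cyp2c67 with 2 each), of which brain covered 66.7%. Zinc finger genes named Zfp held 16 (1.57 per Mb), 5 of them in Zfp804a, all 5 covered in brain, and 2 in Zfp536. Of 34 genes of thymocyte identity, 2 held a long BUR, beside 1292 of 22350 protein-coding genes (5.78%). They were Il2ra, a subunit of the interleukin 2 receptor, and Tox, a factor of T-cell development, with 1 each. No thymocyte library pair covered either, and brain covered the one in Tox. Serpin and UDP-glucuronosyltransferase genes held 3, of which 1 lies in the overlapping Ugt1a10 and Ugt1a5. C-type lectin receptors held 3 (Clec12a and Clec2h with 1 each), keratins 1 (Krt80) and the 40 Hox genes 0. A BUR was counted in a family where any base touched a gene. A long BUR meets a short gene more easily than a shorter BUR does, which can raise its share in families of short genes. A count per Mb of gene rests on few regions in small families and no test was made.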

How the data were processed

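The authors checked reads with FastQC, mapped them to mm9 with bowtie2 2.3.1, kept unique matches and called peaks in each library with MACS2 2.2.7. Each deposited list gives positions, a display score not used here, the summit's fold enrichment, a ratio over background from the authors' peak caller, the deposited −log10 p and −log10 q, and the summit. The lowest −log10 q of a shorter BUR was 2.08.

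Here, 1 map list and 10 ChIP lists were read with Python 3.11.15, numpy 2.4.6, pandas 2.3.3 and scipy 1.17.1. Knockout, input, Hi-C and 4C samples and the second thymocyte CTCF sample were not analysed here. Groups and replicate numbers came from the sample titles. Sequence came from NCBIM37 and genes from GENCODE vM1, both of the build of the files. A BUR was occupied where its summit lay in a peak, or, where stated, any base did. Weighting gave shorter BURs the distribution of long BURs over 10 strata. Libraries, not regions, were the units of the exact permutation tests, and 4 tests were adjusted together. All 4 take the libraries as independent. If the 2 libraries of a cell type depend on each other, the p-values are too low. Intervals for counting error could not be given, as the lists hold no counts, and regions of the map carry no replicate. The tests were checked on simulated lists with known answers. Members, gene lists and tests were chosen with earlier results of these data known. The named BURs are the 10 longest, the 5 of highest fold enrichment in vitro and in each cell type, the 3 longest with no urea SATB1 peak, the 3 of highest in vitro fold enrichment with CTCF peaks in both cell types and with both standard SATB1 peaks, and the 5 longest near gene starts. The named genes are the 10 with most long BURs, the 5 with most covered in brain and 2 per gene family, and a gene and a sequence among those chosen are not reported here. Libraries with the same replicate number did not deviate together, with correlations over BURs of -0.038, 0.0095 and -0.0033, so the numbers were not used to pair them.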

Additional observations from a re-analysis of the deposited data

Results flagged for a closer look

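The excess of occupancy at long over shorter BURs differed between cell types on the log2 odds scale. The means over 2 libraries were 0.93 in skin, 0.95 in thymocytes and 1.21 in brain, and the order was tested with the exact permutation test given above. GATA-rich long BURs were touched less often than other long BURs in every urea SATB1 list and more often in every standard SATB1 list. With any base in a peak, the log2 ratio of the 2 shares had a mean of -2.85 ± 0.32 (SD) over 6 urea lists, from -3.16 to -2.36, and of 4.66 ± 0.34 over 2 standard lists, from 4.42 to 4.90. By the summit the share in standard replicate 1 was 2.09% against 0.41%. The difference between the methods was not tested, and the GATA class was defined after the data had been seen.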

How the results depend on the processing

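The excess of occupancy kept its direction and its p of 0.031 in all 13 settings other than those that leave out a library, with log2 odds ratios from 0.56 to 1.47. Leaving out 1 library gave 0.98 to 1.05 for the excess, and 52.4 to 81.8 bp for peak length, each with p = 0.063, the smallest exact p that 5 libraries allow, and without brain replicate 1 the difference in fold enrichment was 0.09 (range over libraries 0.09 to 0.16). Peak length kept its call in the 4 other settings (52.0 to 80.0 bp). Fold enrichment passed the threshold at a limit of 700 bp (0.15) and under weighting to in vitro fold (0.075). The order of cell types, with 12 of 12 pairs, was the opposite as a ratio of shares (0 of 12), lost its call at a limit of 1000 bp (8 of 12) and with the replicate block (12 of 12, exact permutation p = 0.056). The AT difference of 1.39 points moved to 2.00 in the 300 bp at the summit and to 1.69 at a limit of 1000 bp. The share of long BURs in genes, 24.8%, was 26.5% for genes of all types, 25.7% at a limit of 700 bp and 21.0% at 1000 bp. The standard SATB1 excess of 2.15 ran from 1.34 (400-bp window) to 3.21 (weighted to AT content), and the standard share of GATA-rich long BURs, with a mean of 25.5%, was 14.8% at a minimum of 10% of bases, 42.9% at 40% and 9.70% by the summit. The causes of these changes were not tested. Settings on GATA repeats were added after the data had been seen. The lists do not give the depth of a library, so the absence of a peak does not show the absence of SATB1.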
